A study of Mus musculus with 24 samples.

Results

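Myoglobin, the creatine kinases and a set of muscle enzymes of energy supply were followed in 2 mouse cell lines, C2C12 and NSC34, by line and by co-culture. The 10 listed genes were Mb, Ckm, Ckb, Ckmt1, Ckmt2, Pgam2, Eno3, Pfkm, Pygm and Fabp3. They were chosen by name and selected on earlier measured values of C2C12 co-culture over control, so the values of that contrast are given below as a description without a test. Of the 10 genes, 9 had reads, among 15564 genes with reads in either line; Ckmt1, a mitochondrial creatine kinase, was not analysed here. C2C12 is a mouse line of myoblasts able to fuse into muscle fibres, NSC34 is a line with features of motor neurons, and both carry the genotype label WT. The 4 groups were C2C12 co-cultured with NSC34 for 3 days, C2C12 grown alone, NSC34 co-cultured with C2C12 for 3 days and NSC34 grown alone, with 6 libraries in each. Each cell type is thus represented by a single line. The labels leave unstated how the cells of a co-culture were separated before RNA extraction and whether replicates were separate cultures, so p-values measure only the spread between these libraries, which may be technical.

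Working muscle draws on a small store of high-energy phosphate and refills it by burning glycogen, glucose and fatty acids. Creatine kinase moves phosphate between creatine and ATP, myoglobin binds oxygen in the cytoplasm, and glycolytic enzymes turn sugar into ATP. Several of these proteins exist as a muscle form and a brain or ubiquitous form encoded by different genes, and the muscle forms are known to take over as myoblasts become muscle fibres. Creatine kinase is the textbook case, with the brain form encoded by Ckb and the muscle form by Ckm.

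Read depth differed widely between the lines, and this set how much could be seen. C2C12 co-cultures held 143502 to 547071 reads per library and C2C12 controls 121154 to 658075. NSC34 co-cultures held 2807 to 30314 reads and NSC34 controls 88 to 4624. A count of 0, taken as a limit of 3 reads of the group's total, allowed levels of up to 1.66 CPM (a gene's reads scaled to a fixed library total) in C2C12 co-cultures and 2.004 CPM in C2C12 controls, against 54.5 CPM in NSC34 co-cultures and 189 CPM in NSC34 controls. Such limits, and the exact 95% intervals given below, cover counting error only. The line labels were checked against marker genes. Of 25 skeletal muscle markers all 25 had reads in C2C12, with a summed level of 46728 to 52673 CPM in co-cultures and 41566 to 49131 CPM in controls. The label calls these cells myoblasts, and genes of differentiated muscle were among the markers with many reads, such as Mylpf, a myosin light chain of fast muscle, with 14406 reads in co-cultures and 11430 in controls. Of 24 neuron markers 14 had reads in NSC34, led by Uchl1 with 86 reads, Tubb3 with 26 and Prph with 25, while Chat, which makes acetylcholine, had 1 read. The other 10 had 0 reads there: Stmn2, Nefm, Nefh, Map2, Dcx, Rbfox3, Isl2, Mnx1, Lhx3 and Slc18a3. Stmn2 was the neuron marker with most reads in C2C12, at 369.

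The promoters of the 3 genes that stood highest over control in co-cultured C2C12 (Mb, Ckm and Pgam2) are shown with that of Ckb, the brain form beside which Ckm is read. Mb (ENSMUSG00000018893.15) lies at chr15:77015487-77050670 on the minus strand of GRCm38, Ckm (ENSMUSG00000030399.2) at chr7:19404776-19422841 on the plus strand, Pgam2 (ENSMUSG00000020475.3) at chr11:5801640-5803733 on the minus strand and Ckb (ENSMUSG00000001270.9) at chr12:111669361-111672338 on the minus strand. Each window holds the 250 bases before the gene's start in RefSeq on GRCm38.p6, read 5′ to 3′ on the gene's strand. The windows are chr15:77022788-77023037 (minus) for Mb, chr7:19410844-19411093 (plus) for Ckm, chr11:5803797-5804046 (minus) for Pgam2 and chr12:111672339-111672588 (minus) for Ckb. The Ckm window ends 69 bases inside the first exon of the annotated transcript that held its reads, and the Pgam2 window ends 63 bases before its transcript. Capitals mark matches to the E-box, the CANNTG motif bound by myogenic factors such as MyoD and myogenin, and to the motif of the MEF2 factors.
Mb: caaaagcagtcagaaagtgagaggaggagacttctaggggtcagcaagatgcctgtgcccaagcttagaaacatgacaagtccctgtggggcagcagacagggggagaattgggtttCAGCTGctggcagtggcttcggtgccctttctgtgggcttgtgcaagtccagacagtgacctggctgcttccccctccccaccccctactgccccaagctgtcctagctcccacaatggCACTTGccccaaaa
Ckm: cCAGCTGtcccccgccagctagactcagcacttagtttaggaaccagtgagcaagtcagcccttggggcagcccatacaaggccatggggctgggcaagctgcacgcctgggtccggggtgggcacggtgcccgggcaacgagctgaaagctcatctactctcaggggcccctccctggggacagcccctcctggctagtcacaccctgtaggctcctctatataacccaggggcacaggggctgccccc
Pgam2: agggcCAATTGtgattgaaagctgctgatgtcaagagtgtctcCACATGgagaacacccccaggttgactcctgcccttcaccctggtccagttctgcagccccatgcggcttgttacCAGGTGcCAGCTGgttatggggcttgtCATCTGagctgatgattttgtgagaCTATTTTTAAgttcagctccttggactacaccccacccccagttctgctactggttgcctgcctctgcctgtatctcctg
Ckb: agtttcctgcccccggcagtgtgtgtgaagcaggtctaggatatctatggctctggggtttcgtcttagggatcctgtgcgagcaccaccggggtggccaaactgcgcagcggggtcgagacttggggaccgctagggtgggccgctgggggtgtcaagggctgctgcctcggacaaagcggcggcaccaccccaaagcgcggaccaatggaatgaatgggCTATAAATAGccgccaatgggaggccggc
Both strands were searched for the E-box CANNTG, for its CAGCTG form, for the MEF2 and CArG motifs and for TATAAA. The Mb window held 2 E-boxes, the Ckm window 1 and the Pgam2 window 5, and in each of these windows 1 E-box read CAGCTG. The Ckb window held 0 E-boxes. Among the members not shown, the Pygm window held 2 E-boxes, each CAGCTG, and the Ckmt2 window 4, of which 1 was CAGCTG. The Eno3 window held 1 E-box, the Pfkm window 3 and the Fabp3 window 1, with 0 CAGCTG in each. CAGCTG was thus not limited to the genes that stood higher in co-culture. The Pgam2 window held 1 MEF2 match, and the Ckb window held 1 that overlaps its TATAAA. No window of the 9 genes held a CArG match. Of all 32851 RefSeq promoter windows of that length, 66.2% held an E-box, 13% held CAGCTG, 2.92% a MEF2 match, 1.47% a CArG match and 12.4% TATAAA. An E-box is thus common, and such matches describe letters in a window, not bound sites.

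In co-cultured C2C12, Mb, Ckm and Pgam2 stood above control C2C12 in every library, by 1.56- to 1.66-fold, while Eno3, Fabp3 and Ckb did not separate from control. The edgeR quasi-likelihood fit over 2570 C2C12 genes held 7 members, and Ckmt2 and Pygm had too few reads to enter it. Its fold changes, standard errors and 95% intervals are printed for the members as descriptions, and no p-value is. The 7 members had a median log2 fold change of 0.47, against 0.0024 over all tested genes.

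Mb encodes myoglobin, the oxygen-binding protein of muscle. Its level ran from 970.8 CPM through a median of 1121 to 1174 CPM in the 6 C2C12 co-cultures, against 559.7, 676 and 732 CPM (lowest, median, highest) in the 6 controls. Every co-culture library thus lay above every control library. The means were 1099 ± 72.1 CPM in co-cultures and 661 ± 58.8 CPM in controls (SD, n = 6 each), and the fitted log2 fold change was 0.73 with an SE of 0.0808 and a 95% interval of 0.56 to 0.90.

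Ckm encodes the muscle creatine kinase. It ran from 444 through 502 to 587 CPM in co-cultures, against 278, 330 and 396 CPM in controls. The groups did not overlap here either. Ckm averaged 508 ± 49.8 CPM in co-cultures and 331 ± 39.1 CPM in controls (SD, n = 6 each), a log2 fold change of 0.64 (SE 0.102, interval 0.43 to 0.86). Groups that did not overlap, with co-culture higher, were seen in 1.05% of all tested genes.

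Ckb, the brain creatine kinase, did not separate by group. It ran from 309 through 327 to 373 CPM in co-cultures, against 239, 315 and 459 CPM in controls, so that the controls spanned the co-cultures. The log2 fold change was -0.05 (SE 0.120, interval -0.30 to 0.20), and over the other settings and the fits without 1 library it lay on both sides of 0, from -0.13 to 0.08. Ckm and Ckb share 76.2% of bases over 1156 aligned bases, and Ckb is 96.8% identical over 1149 bases to the gene model Gm12892, which had 0 reads. Ckmt2, the mitochondrial creatine kinase of heart and skeletal muscle, had 1 read in co-cultures and 0 in controls.

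Pgam2 and Pfkm act in glycolysis. Pgam2, the muscle phosphoglycerate mutase, ran from 148 through 176 to 209 CPM in co-cultures, against 63.6, 114 and 131 CPM in controls, again without overlap. The means were 175 ± 21.0 CPM in co-cultures and 105 ± 26.3 CPM in controls (SD, n = 6 each), with a log2 fold change of 0.67 (SE 0.157, interval 0.34 to 0.99). Control libraries 1 and 4, among the shallowest of the controls, bear on this gene: without both of them the log2 fold change was 0.55, and without 1 library at a time it was 0.60 to 0.73. Pfkm, the muscle subunit of phosphofructokinase, ran from 96.9 through 145 to 231 CPM in co-cultures and from 47.7 through 116 to 160 CPM in controls. Its groups overlapped, and the log2 fold change of 0.47 (SE 0.236) had an interval that reached 0, from -0.02 to 0.96.

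Eno3, Fabp3 and Pygm complete the list. Eno3, the muscle enolase, averaged 623 ± 96.5 CPM in co-cultures and 563 ± 84.6 CPM in controls (SD, n = 6 each), a log2 fold change of 0.14 (SE 0.113, interval -0.09 to 0.38). Fabp3, which carries fatty acids in heart and muscle cells, averaged 144 ± 25.9 CPM in co-cultures and 131 ± 23.99 CPM in controls, a log2 fold change of 0.13 (SE 0.155, interval -0.19 to 0.46). Both genes overlapped between the groups. Pygm, the muscle glycogen phosphorylase that frees glucose units from glycogen, was the one member with reads in every library and a lower mean in co-culture. It had 17 reads in co-cultures and 25 in controls, or 2.85 to 17.1 CPM (median 6.79) against 13.3 to 23.8 CPM (median 17.6). These ranges overlapped, and a gene this low was not tested.

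**Figure D1:**
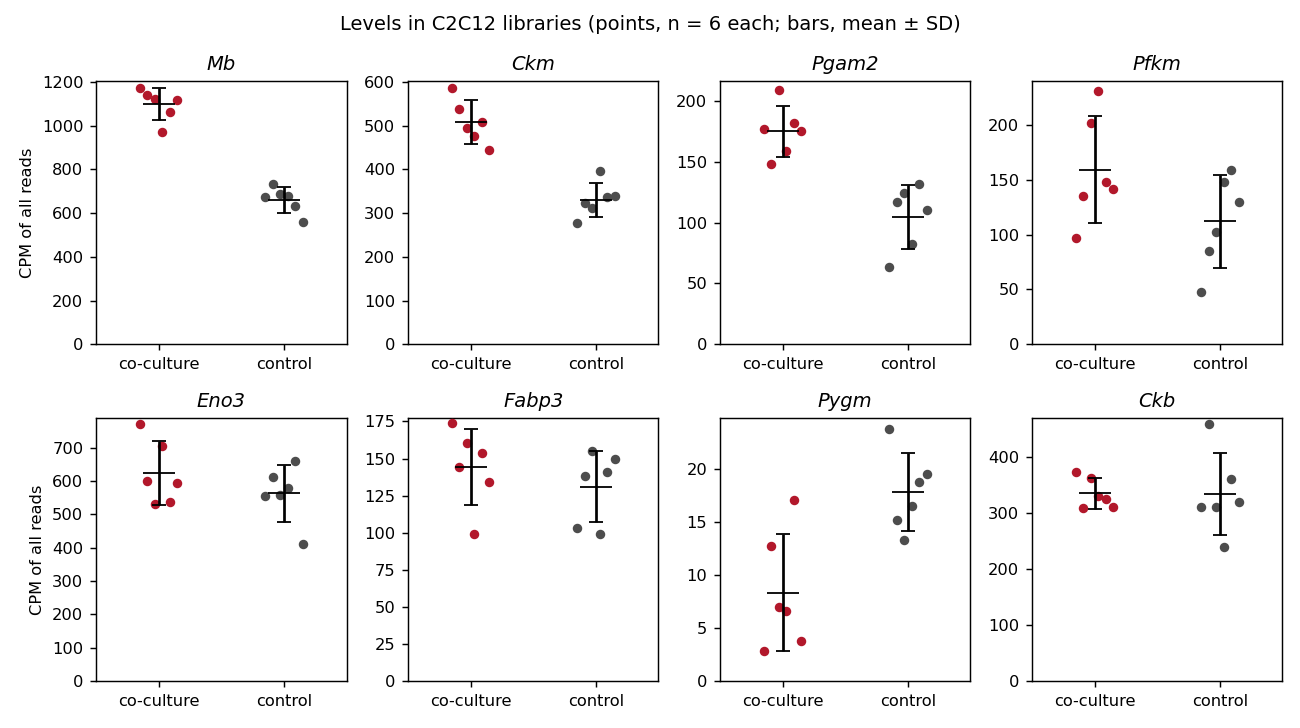
Levels of 8 members in C2C12 libraries in CPM of all reads (vertical axes, each starting at 0), co-culture left and control right; points are libraries, bars the mean and SD (n = 6 each). Mb, Ckm and Pgam2 do not overlap between the groups, with Mb at 970.8 to 1174 CPM in co-cultures and 559.7 to 732 CPM in controls, while Eno3, Fabp3 and Ckb overlap.

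The order of levels was compared per kilobase of each gene's main transcript and also by CPM. Whether read counts grew with transcript length in these libraries was not tested, so neither order is preferred. In co-cultures Mb led with 995 ± 65.3 CPM per kilobase, followed by Eno3 with 429 ± 66.4, and their ranges did not overlap. Ckb (227), Pgam2 (208), Ckm (185) and Fabp3 (175 CPM per kilobase) followed, each overlapping its neighbour in the order. Pfkm (56.9) and Pygm (2.90 CPM per kilobase) were set apart below them. In controls Mb led again with 599 ± 53.3 CPM per kilobase above Eno3 with 387 ± 58.2, and Ckm (121) came after Ckb (226), Fabp3 (159) and Pgam2 (125 CPM per kilobase), with each of these overlapping the next. By CPM alone, Ckm came before Ckb, after Mb and Eno3, in co-cultures. In controls Ckb and Ckm had near-equal means, 333 ± 73.0 and 331 ± 39.1 CPM (SD, n = 6 each). Their ranges overlapped there, and their medians stood the other way, at 315 and 330 CPM. In co-cultures the CPM ranges of Ckm (444 to 587) and Ckb (309 to 373) did not overlap, so their order there depends on the scale.

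Muscle and brain or ubiquitous forms of one enzyme were then read as a pair, which sets each library against itself. Of the creatine kinase reads that fell on Ckm or Ckb, Ckm held 57.7% to 63.5% in co-culture libraries (median 60.1%), against 41.2% to 62.3% in control libraries (median 49.2%). A single control library reached the co-culture range. Over all reads of a group, Ckm held 61.1% in co-cultures (941 of 1540 reads, exact 95% interval 58.6% to 63.5%) and 46.4% in controls (489 of 1055 reads, 43.3% to 49.4%). Control library 2 held 514 of those 1055 reads and had the lowest share, 41.2%. The mean share per library was 60.2% in co-cultures (SD 2.08) and 50.1% in controls (SD 6.94). The share uses the same Ckm values as above and is likewise a description.

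The shares of the other families overlapped between the groups as well. Fabp3 held 77.1% to 88.5% of Fabp3 and Fabp5 reads in co-cultures and 61.9% to 85.2% in controls. Pgam2 held 37.9% to 60.0% of phosphoglycerate mutase reads in co-cultures and 32.0% to 49.1% in controls, Pgam1 being the ubiquitous form. Eno3 held 34.7% to 51.9% of enolase reads in co-cultures and 39.4% to 48.95% in controls, with Eno1, the ubiquitous form, and Eno1b, which is 99.5% identical to Eno1 over 1736 bases, counted together. Pfkm held 58.5% to 85.4% of phosphofructokinase reads in co-cultures and 50% to 79.1% in controls. Of the few glycogen phosphorylase reads, on Pygm, Pygb and Pygl, Pygm held 25% to 58.3% in co-cultures and 33.3% to 75% in controls. Its mean share was lower in co-cultures, 37.5% against 55.8%. Thus Pgam2 stood higher in co-cultures while its share of its family overlapped, and its ubiquitous partner also had a positive fold change. Pgam1 averaged 208 ± 61.2 CPM in co-cultures and 149 ± 33.7 CPM in controls, 0.48 on the log2 scale (SE 0.185, adjusted p 0.215 in edgeR). For Eno1, counted without Eno1b, the log2 fold change was 0.33 (SE 0.125, adjusted p 0.207 in edgeR). Of 14 genes listed as brain or ubiquitous forms, 3 were tested, 0 passed, and 2 lay above 0.

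**Figure D2:**
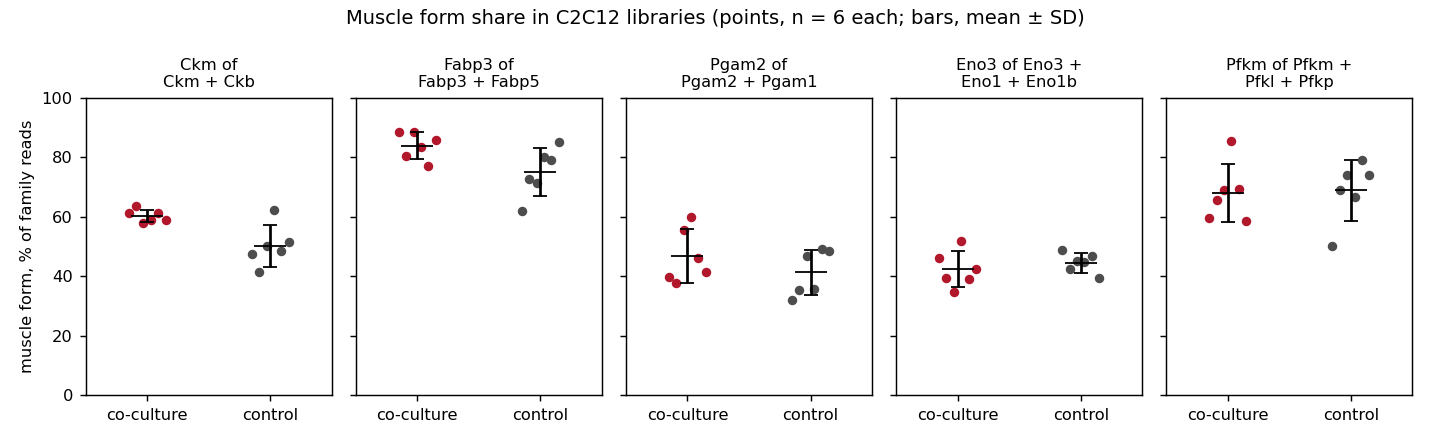
Share of a family's reads on its muscle form (vertical axis, percent, 0 to 100) in C2C12 co-culture (left) and control libraries (right); points are libraries, bars the mean and SD (n = 6 each). Ckm holds 57.7% to 63.5% of creatine kinase reads in co-cultures against 41.2% to 62.3% in controls, and the other families shown overlap more broadly.

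Further genes of muscle fuel use and phosphate supply were taken as a list of 40, of which 18 had enough C2C12 reads to be tested. Of these 18, 3 rose in co-cultures, 0 fell and 17 had a fold change above 0 (16 when scaled by library totals; in DESeq2 5 rose and 18 lay above 0), with a median log2 fold change of 0.33 against 0.0024 over all tested genes. Of all tested genes 0.817% rose and 0.623% fell, 1.44% in all, which is 21 higher and 16 lower (23 and 35 when scaled by library totals). The 3 that rose were Cox8b, which encodes a muscle-type subunit of cytochrome oxidase in the respiratory chain (log2 fold change 0.77, SE 0.117, adjusted p 0.0023), Tpi1, the glycolytic triosephosphate isomerase (0.64, SE 0.125, adjusted p 0.0139), and Gapdh, the next glycolytic enzyme (0.35, SE 0.0770, adjusted p 0.0274; all edgeR). Ldha, which turns pyruvate into lactate, did not pass (0.45, SE 0.119, adjusted p 0.0524 in edgeR; 0.0132 in DESeq2), although its groups did not overlap. Without control libraries 1 and 4, 1 gene of the list passed, Cox8b, with an adjusted p of 0.0114 in edgeR. At the low end stood Slc25a4, the ADP/ATP carrier of muscle mitochondria, at 0.01, and Slc6a8, the creatine transporter, at -0.01.

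**Figure D3:**
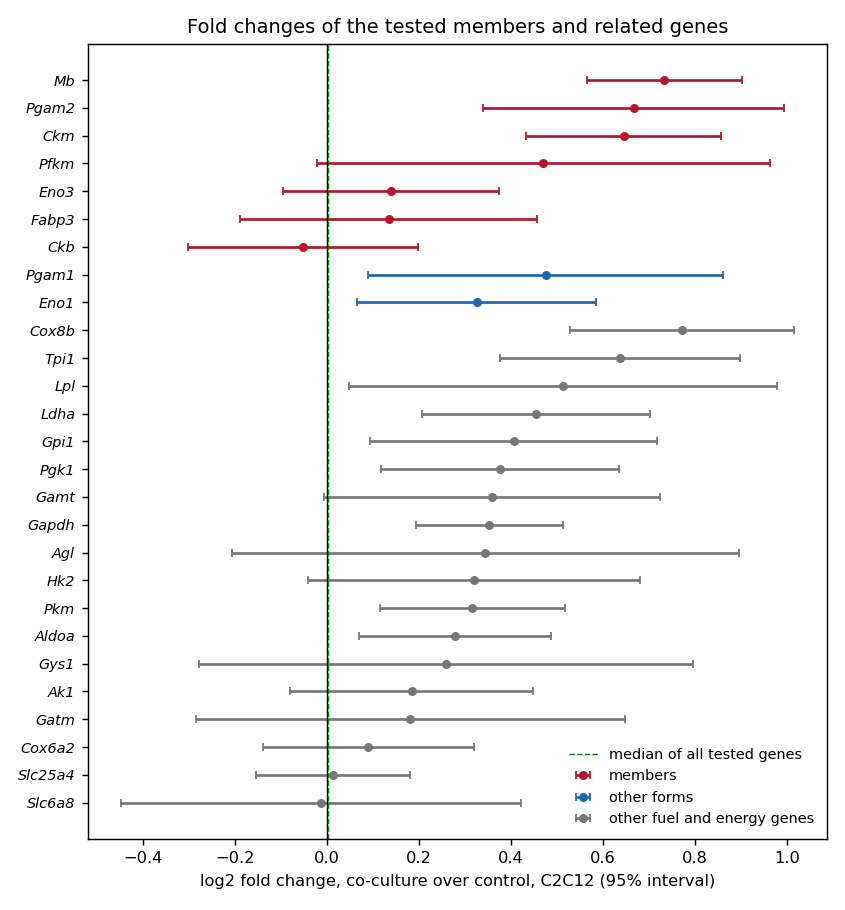
Log2 fold change of co-culture over control in C2C12 (horizontal axis) with 95% intervals for the 7 tested members, 2 other forms and 18 further fuel and energy genes. Mb, Pgam2 and Ckm lie at 0.64 to 0.73, the intervals of Pfkm, Eno3, Fabp3 and Ckb reach 0, and the dashed line marks the median of all tested genes at 0.0024.

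Other gene groups moved in the same libraries, and their values stand here beside the members. In bulk RNA, a larger share of muscle cells and more of an RNA per muscle cell cannot be told apart. Of 25 skeletal muscle markers 23 were tested, and 4 rose (Tnnt1, Tnni2, Atp2a1 and Myog) and 0 fell, with a median log2 fold change of 0.11. Atp2a1, the calcium pump of fast muscle, changed by 0.66 (SE 0.156, adjusted p 0.0362 in edgeR), about as much as Ckm, and Myog, a muscle transcription factor, by 0.43 (SE 0.106, adjusted p 0.0457). In DESeq2 7 of the 23 rose, and without control libraries 1 and 4 0 passed in edgeR. Values of 4 large structural genes lay on both sides of 0 and did not pass in edgeR, with Ttn at -0.64 (adjusted p 0.104), Myh3 at -0.37 (0.394), Neb at 0.14 (0.931) and Myh8 at 0.09 (0.847).

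Summed over 20 cell cycle genes, levels were 720 to 871 CPM in co-cultures and 861 to 1090 CPM in controls, and of 8 tested, Top2a fell by 1.18 on the log2 scale (SE 0.294, adjusted p 0.0457 in edgeR; 0.100 without control libraries 1 and 4, and no adjusted p from DESeq2). Neuron markers summed to 190 to 223 CPM in C2C12 co-cultures and 189 to 272 CPM in C2C12 controls, ranges that overlapped, with 15 of 24 showing reads. Among the motor neuron markers, Chat, Mnx1, Isl1 and Slc18a3 had 0 reads in all C2C12 libraries, and Isl2 had 2 in controls. In NSC34 itself Chat had 1 read, Isl1 3, and Mnx1, Slc18a3 and Isl2 0, so their absence from C2C12 says little. Of markers with more NSC34 reads, Uchl1 had 19 reads in C2C12 co-cultures and 12 in controls, Prph 1 and 0, and Stmn3 0 and 0. Most of the sum came from Stmn2 (193 reads in co-cultures and 176 in controls) and Tubb3 (93 and 97 reads), and Stmn2 had 0 reads in NSC34. Adipocyte markers, 3 of 8 with reads, summed to 6.97 to 26.4 CPM in co-cultures and 0 to 33.0 CPM in controls, and glial markers, 3 of 8 with reads, to at most 13.9 CPM in co-cultures and 9.38 CPM in controls. Adipoq and Plin1 of adipocytes and Gfap of glia were at 0 reads. Their part in the members' values was not tested.

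Over the 12 C2C12 libraries, the genes whose log2 levels moved most like Mb were found by the root mean square distance of log2 CPM, each gene centred on its own mean, among 2569 others. The nearest were Pold4 at 0.163, Spp1 at 0.167, Ckm at 0.177, Fam162a at 0.186 and Higd1a at 0.190, against a median distance of 0.494. Nearest to Ckm were Nav2 at 0.153, Spp1 at 0.160, Vamp5 at 0.170, Mif at 0.171 and Mb at 0.177, against a median of 0.462. Mb and Ckm thus appear in each other's 5 nearest genes. All points share the same libraries and the co-culture split, so the distances are a description.

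Reads of 6 members fell on more than 1 annotated transcript; for Ckb this was 4 reads on Ckb-204. Most Mb reads fell on Mb-203, which starts at the promoter printed above, with 85.1% in co-cultures and 85.5% in controls. Mb-202, whose first base lies 27883 bases upstream of that of Mb-203, held 14.8% in co-cultures and 14.5% in controls. In 10 libraries it held 12.2% to 20%, and in the other 2 it held none. These were control library 1, with 85 Mb reads, and co-culture library 3, with 161. Ckm reads lay wholly on Ckm-203 in 11 of 12 libraries, with 6 reads on Ckm-201 in the other. Eno3 reads were split between Eno3-201, with 55.0% in co-cultures and 50.1% in controls, and Eno3-202, with 43.0% in co-cultures and 47.0% in controls, whose first bases are 2 bases apart.

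Pfkm-205 held 88.2% of Pfkm reads in co-cultures (231 of 262) and 76.4% in controls (120 of 157), with single libraries between 50% and 100% in co-cultures and between 0% and 87.5% in controls. Pfkm-201, which starts 15822 bases downstream of it, held 11.1% in co-cultures and 19.1% in controls. For Pygm, each of the 12 libraries had all of its reads on a single transcript, Pygm-201 in 7 and Pygm-202 in 5. Co-culture libraries 1, 3, 4 and 6 held 1 Pygm read each, where a single transcript was certain, and no library held more than 10. Control library 2, with 10 Pygm reads, and co-culture library 2, with 7, had all of them on Pygm-201. How far the assignment of reads to transcripts shaped the shares given here for Mb, Eno3, Pfkm and Pygm was not tested. The levels above are sums over transcripts and do not depend on that division.

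**Figure D4:**
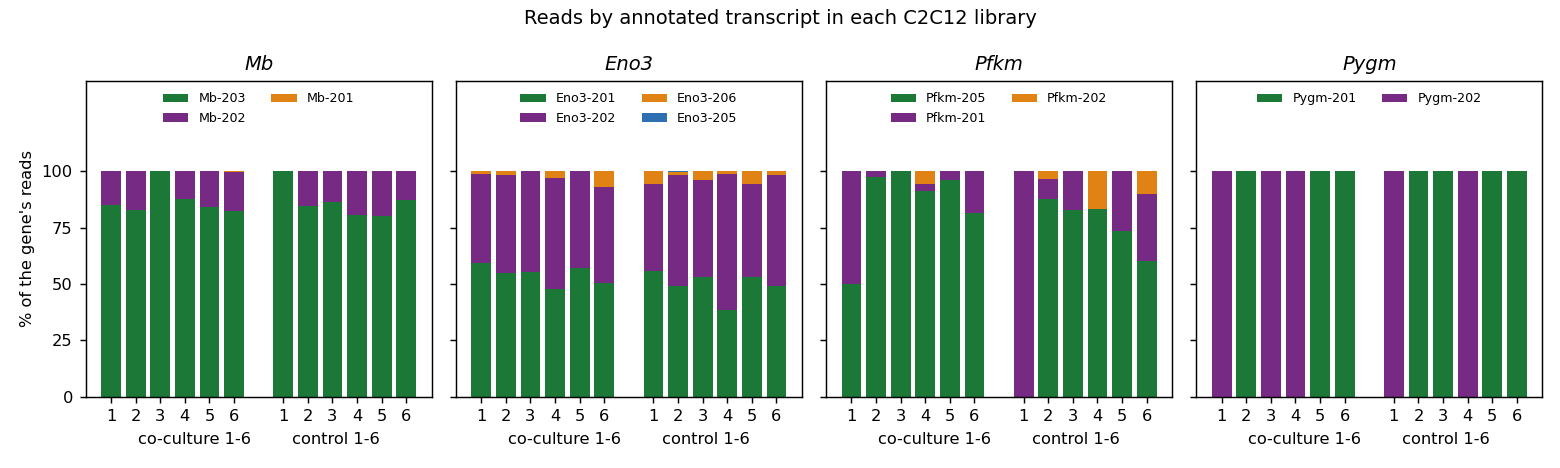
Share of a gene's reads (vertical axis, percent) on each annotated transcript in every C2C12 library, co-cultures 1 to 6 left and controls 1 to 6 right in each panel. Mb-202 holds 12.2% to 20% in 10 libraries and none in the other 2, Eno3 is split in all, and every library's Pygm reads lie on 1 transcript. Co-cultures 1, 3, 4 and 6 hold 1 Pygm read each.

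Across the lines, few NSC34 reads fell on these genes, the brain form Ckb included. The 12 NSC34 libraries held 70865 reads in all, of which 10 fell on members: 7 on Pfkm and 1 each on Mb, Eno3 and Fabp3. Ckb, Ckm and Pgam2 had 0 reads in NSC34. At the C2C12 level, 65.2 reads of Mb, 30.6 of Ckm, 24.9 of Ckb, 42.9 of Eno3, 10.2 of Pgam2 and 10.1 of Fabp3 would have stood in the NSC34 libraries. Pygm and Ckmt2 were too low in C2C12, with less than 1 read to be looked for, for the depth of NSC34 to show a difference.

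Ckb stood at 352 CPM over all C2C12 libraries (1165 reads), against 0 reads in NSC34, at least 8.31-fold higher in C2C12. By the same limit, taken over all libraries of the line, Ckm was at least 10.2-fold and Pgam2 at least 3.397-fold higher in C2C12. With 1 NSC34 read, Mb had a ratio of 65.2 with a 95% counting interval of 11.7 to 2575, Eno3 a ratio of 42.9 with an interval of 7.69 to 1695, and Fabp3 a ratio of 10.1 with an interval of 1.81 to 400.01. All 3 of these reads fell in co-cultured NSC34. NSC34 co-culture library 2 alone held 30314 of the 70865 NSC34 reads, among them the Mb and the Fabp3 read, and the limits rest largely on it. Without it Ckm was at least 5.84-fold, Ckb at least 4.76-fold and Pgam2 at least 1.94-fold higher in C2C12. Mb and Fabp3 then had 0 NSC34 reads, at least 12.4-fold and 1.93-fold higher in C2C12, and Eno3 had a ratio of 24.5 (interval 4.40 to 969.8). In control cultures alone, Mb was at least 3.62-fold, Eno3 at least 3.08-fold, Ckb at least 1.998-fold and Ckm at least 1.73-fold higher in C2C12. Pgam2 (112 CPM) and Fabp3 (136 CPM) in C2C12 controls lay below the limit of 189 CPM in NSC34 controls. No bound could be set for them there.

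The edgeR fit over libraries was run separately in co-cultures and in controls. Mb, Eno3, Ckm, Ckb and Pgam2 had no more than 1 NSC34 read each and could enter it only through their C2C12 reads, so their direction was fixed by the filter on low counts and no p-value is given for them. In co-cultures 31.4% of 1113 tested genes were called higher in C2C12 and 17.3% lower, and in controls 30.2% of 818 were called higher and 3.55% lower. The median log2 fold change of all tested genes was 0.23 in co-cultures and 0.77 in controls, and it moved to 0.0036 and 0.24 with library totals and to 0.46 and 0.58 with RLE factors. The genes called numbered 350 higher and 193 lower in co-cultures (292 and 249 with library totals, 435 and 146 with RLE factors), and 247 higher and 29 lower in controls (151 and 74 with library totals).

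Pfkm was the exception among the members. The C2C12 level would have given 8.97 reads at the NSC34 depth and 7 were counted in NSC34, and its ratio of 1.28 had an interval of 0.617 to 3.21. In co-cultures the edgeR log2 fold change of C2C12 over NSC34 was 0.81 (SE 0.654, adjusted p 0.33), with overlapping groups. Without the filter on low counts the adjusted p was 0.000846, so that call depends on the filter.

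The ubiquitous partners were present in both lines. Eno3 was 42.6% of enolase reads in C2C12 (exact 95% interval 41.2% to 44.1%), against 1.64% in NSC34 (0.0415% to 8.80%), where 60 reads fell on Eno1 and Eno1b and 1 on Eno3. For phosphoglycerate mutase, Pgam2 was 41.8% of reads in C2C12 (38.9% to 44.7%) and 0 of 30 reads in NSC34 (up to 11.6% by the exact interval). Pfkm was 68.2% of 614 phosphofructokinase reads in C2C12 (64.4% to 71.9%) and 43.8% of 16 in NSC34 (19.8% to 70.1%). Pgam1 was lower in C2C12 co-cultures than in NSC34 co-cultures, at -1.002 on the log2 scale (adjusted p 0.0433 in edgeR; 0.114 with RLE factors). Of its 27 reads in NSC34 co-cultures, 22 fell in NSC34 co-culture library 2. Over all libraries its ratio of C2C12 to NSC34 was 0.474 (counting interval 0.329 to 0.708). Without that library the ratio was 1.02 (0.513 to 2.37), so the difference rests on it. Eno1 did not pass in co-cultures (0.51, adjusted p 0.169 in edgeR), nor in controls (0.71, adjusted p 0.385 in edgeR). With RLE factors it passed in co-cultures, at 0.74 (adjusted p 0.0324 in edgeR). These Eno1 values leave out Eno1b. In co-cultures Eno1 alone had 1300 reads in C2C12 and 30 in NSC34, and with Eno1b the counts were 1574 and 49. Adding Eno1b thus raised the NSC34 count by the larger share, and the summed counts were not tested. Creatine kinase had no form to read in NSC34, with 0 reads of Ckm and Ckb together.

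**Figure D5:**
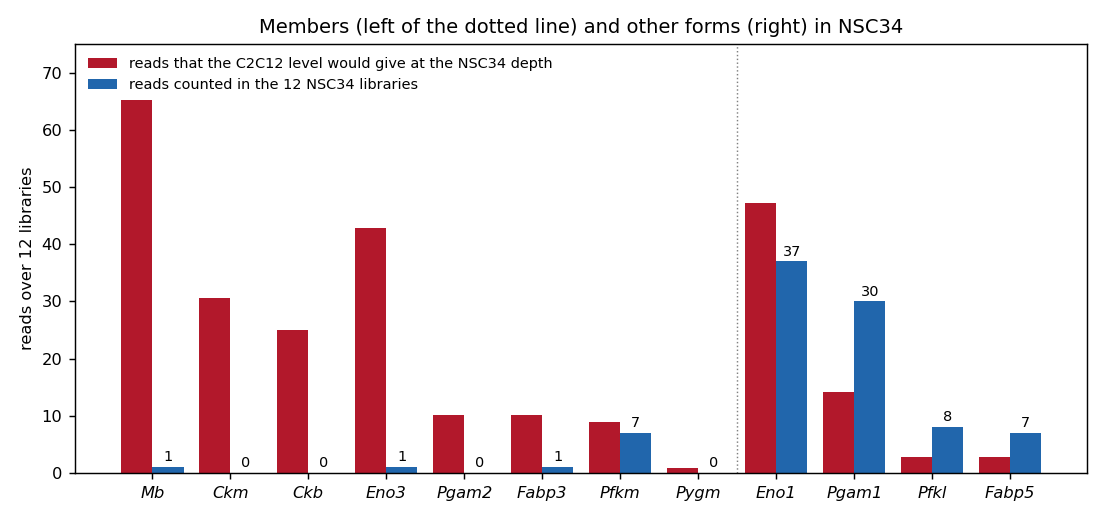
Reads that the C2C12 level would give at the NSC34 depth (red) beside the reads counted over the 12 NSC34 libraries (blue, with the count above the bar; vertical axis), for 8 members and 4 other forms, Eno1 without Eno1b. For Mb 65.2 reads at the C2C12 level stand beside 1 in NSC34, for Ckb 24.9 beside 0 and for Pfkm 8.97 beside 7.

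The 1 read each of Mb, Eno3 and Fabp3 in NSC34 is set here beside the muscle marker reads of that line. Skeletal muscle markers summed to 200 to 928 CPM in NSC34 co-cultures and 0 to 491 CPM in NSC34 controls, with 5 of 25 showing reads. Of these 27 reads, 17 in co-cultures and 3 in controls were of Chrna1, a subunit of the muscle acetylcholine receptor. The rest were 3 of Tnnt1, 2 of Tnnc1 and 1 each of Myh3 and Mef2c. The other 20 markers, among them Myog, Acta1, Mylpf and Des, had 0. The part of muscle RNA from C2C12 in those single reads was not tested.

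Co-culture could not be read for the members in NSC34. They had 8 reads in NSC34 co-cultures (5 of Pfkm, 1 each of Mb, Eno3 and Fabp3) and 2 in NSC34 controls, both of Pfkm. Of 49 genes deep enough for the edgeR test in NSC34, none was a member, and 0 passed (1 at an unadjusted p under 0.05, and 0 by DESeq2). Pfkm stood at 90.9 CPM in co-cultures (exact 95% interval 29.5 to 212) and 126 CPM in controls (15.3 to 455), intervals that span each other. The test of whether the co-culture change differed between the lines covered 1328 genes, and 0 passed in edgeR (160 at an unadjusted p under 0.05, and 0 by DESeq2). It says nothing of 6 of its 7 members, which had 0 or 1 NSC34 reads and so no NSC34 change to compare. For Pfkm the difference was 0.51 on the log2 scale (SE 1.32, interval -2.19 to 3.20, adjusted p 0.964 in edgeR), an interval too wide to show one of the size seen in C2C12.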

How the data were processed

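RNA of 24 libraries was read on a Nanopore MinION after Trizol extraction, per the labels' protocols. Each line has 1 deposited table of unnormalized read counts for Ensembl transcripts, all integers, and 0 of its columns were left unmatched to a sample. The submitters' processing notes name the build GRCm38; how reads were aligned, counted and assigned to a strand is not given in the sources used here. Levels of different genes are compared per kilobase and by CPM, since whether these Nanopore counts grow with transcript length was not tested.

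Transcript names were matched to GENCODE M21 without their version (37415 of 37677 in C2C12 and 10374 of 10427 in NSC34). Unmatched transcripts, with 0.224% of C2C12 and 0.238% of NSC34 reads, were kept as features of their own in library totals and tests. Reads were summed per gene, and a gene missing from a table was counted as 0. Levels are CPM of all reads. Each comparison was fitted across all genes with edgeR 4.0.16 in R 4.3.3 (filterByExpr, TMM, quasi-likelihood F test, Benjamini-Hochberg adjusted p under 0.05): co-culture over control in each line, C2C12 over NSC34 within co-cultures and within controls, and the interaction. Cross-line values rest on raw counts of tables that were counted separately. Exact intervals are Clopper-Pearson at 95%. Shared sequence was searched with BLAST 2.17.0 and promoters were taken from RefSeq. The fit was also run on simulated data with the same set spread between libraries for every gene, not estimated from these data. No result given here rests on that run.

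The members, gene lists and tests were chosen with earlier results of these data known. Named genes were all 10 members, other forms with at least 20 reads in the line, genes of each list past the threshold or otherwise up to 3 with the smallest p, and the 5 genes nearest to Mb and to Ckm. Ldha, Slc25a4, Slc6a8, Ttn, Myh3, Neb, Myh8 and genes named as markers for their level were named after their values were seen. Alternatives were DESeq2 1.42.0, RLE factors or library totals as scaling, fits unfiltered or with mean counts of 10 or more, a replicate block, a removed length trend, TMM-scaled CPM, and fits without each library or without those under 1000 reads. Leaving out control libraries 1 and 4 together and leaving out NSC34 co-culture library 2 were chosen after seeing the data.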

Additional observations from a re-analysis of the deposited data

How the results depend on the processing

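Over 8 other settings and 12 fits without 1 library, the log2 fold change in C2C12 was 0.67 to 0.82 for Mb, 0.60 to 0.73 for Ckm and 0.55 to 0.75 for Pgam2, given as descriptions of the contrast that chose them. The count of C2C12 genes passing, 37, was 58 with library totals, 106 with no filter, 67 with DESeq2, 10 without control libraries 1 and 4, and 11 to 74 without 1 library. It was 24 or fewer without control 1 or 3 or co-culture 1, 2, 3 or 5, and 73 or 74 without control 5 or 6; the cause was not tested. For the lines in controls, 276 genes became 1499 with no filter, 554 with a mean count of at least 10, 490 without the libraries under 1000 reads, and 47 to 513 without 1 library, with 0 to 5 members called. In co-cultures, 543 became 2121 with no filter and 324 to 805 without 1 library, with 3 to 6 members called, counts that the filter on low values fixes for all but Pfkm. The low ends follow that filter, which tested 91 or 92 genes without a C2C12 control and 543 to 549 without a C2C12 co-culture. NSC34 co-culture gave 0 to 1 genes without 1 library and the interaction 0 to 10, and 0 in every other setting run.

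Libraries with the same replicate number did not deviate together (correlations of -0.05 to 0.10 in C2C12 and -0.23 to 0.32 in NSC34; 2 of 6 numbers in C2C12 and 1 of 6 in NSC34 correlated best with their own). The replicate block gave 26 genes in C2C12, 0 in NSC34, 241 between lines in controls and 492 in co-cultures. Depth limits NSC34, where a count of 0 over the line allows a level of up to 42.3 CPM. No C2C12 library and no co-culture library held under 1000 reads, so leaving such libraries out gave no other value there.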
